A study of Mus musculus with 39 samples.

Results

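Bone marrow monocytes of mice that had gone 17 h without food were compared with those of mice left with food over the same 17 h. The comparison rests on 7 of the 39 libraries of a series on dietary intake and circulating monocytes: 3 fed and 4 fasted. They were chosen by their labels alone. All mice were C57BL/6 animals of 8 to 12 weeks with free access to water, and fasting meant that food was taken out of the cage and the bedding changed. The monocytes had been sorted on a FACS Aria, the RNA was isolated with an RNeasy kit and the libraries were made with a low-input kit. Each deposited table lists TPM, a transcript level scaled for transcript length and library size, for 9147 rows. After 13 rows whose symbols had turned into dates were left out, 9134 genes remained. The labels do not say that replicates were separate animals, so p-values measure the spread between libraries, which may be technical. Sorted libraries are bulk samples, in which fewer cells of a kind and less RNA per cell cannot be told apart.

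Monocytes are made in the marrow from proliferating precursors and leave it for the blood through the chemokine receptor CCR2. Classical monocytes carry high Ly6C, and they can become macrophages or dendritic cells in tissue. Food withdrawal is known to raise glucocorticoids and fatty acids in blood and to lower insulin, and cells sense the shortage of energy through the kinases AMPK and mTORC1. All 15 monocyte markers examined were listed, at very different levels. Lyz2, the lysozyme of myeloid cells, stood at 60325 to 65464 TPM in the fed and 72677 to 82770 TPM in the fasted libraries. In the fed libraries Cd14 lay at 13.9 to 21.4 TPM and Itgam at 18.4 to 29.9 TPM, where the median gene lay at 15.5 to 17.2 TPM. Of 19 defining markers of other marrow cells, Cd79a, Hba-a1, Adgre1 and Cd34 were measured and the other 15 were not analysed at 17 h. The B cell marker Cd79a lay between 4.25 and 8.40 TPM in the 7 libraries, and the stem cell marker Cd34 at 9.98 to 12.3 TPM in fed libraries, against 19.9 to 25.6 TPM in the fasted ones.

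The 3 fed libraries stood apart from every other marrow monocyte library examined. Their median gene lay at 15.5 to 17.2 TPM, against 34.5 to 37.1 TPM in the 4 fasted libraries and 35.7 to 42.7 TPM in 11 further C57BL/6 marrow monocyte libraries. Those 11 are 4 fed and 4 fasted libraries of a 4 h experiment, which has its own gene table, and 3 libraries of another experiment. Across 8707 genes, the log2 levels of fed 17 h libraries correlated with those of fed 4 h libraries at r = 0.732 to 0.824, while fasted 17 h and fed 4 h libraries gave 0.938 to 0.963. Within the fed 17 h group r was 0.984 to 0.988. Fasted libraries 2 and 3 were the closest pair of the 7, with a median absolute difference of 0.061 on the log2 scale among genes over 10 TPM in both, against 0.12 to 0.24 for the other pairs within a 17 h group. Without read counts it could not be tested whether they are 1 library.

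**Figure D1:**
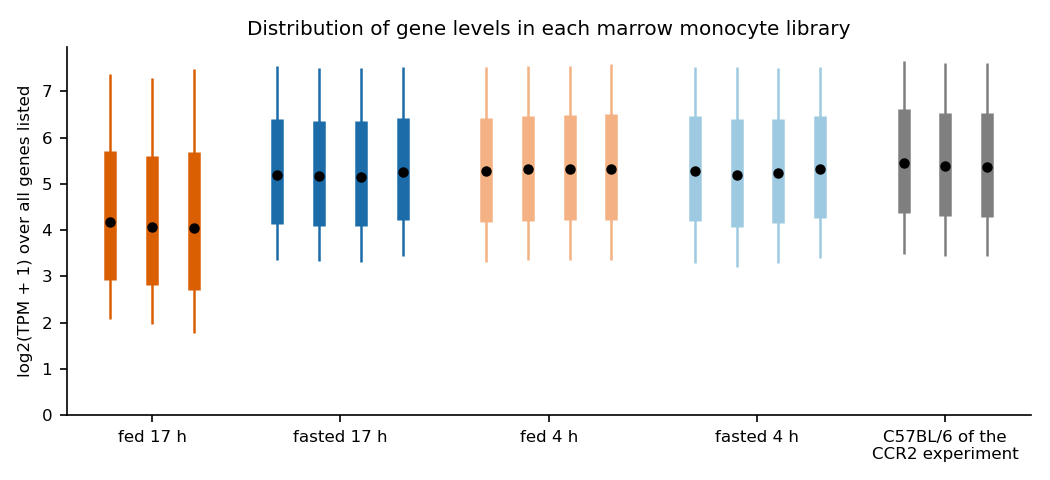
Levels of all genes listed, as log2(TPM + 1), in the 18 C57BL/6 marrow monocyte libraries. Dots are medians, thick bars span the 25th to 75th percentile and thin bars the 10th to 90th; the 3 fed 17 h libraries lie lower than the other 15.

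The shift followed transcript length. In the eighth of genes with the shortest transcripts, of 371 to 1369 bases, the median log2 difference (fasted minus fed) was -0.91, and in the eighth of 4426 to 5762 bases it was 1.77. Over the 8505 genes with a length, 93.1% of those tested, the difference and the length had a Spearman rho of 0.59, a description across genes that share the same 7 libraries. The same fasted libraries set against the fed 4 h libraries gave a rho of -0.37. How much of any one gene's difference comes with its length was not tested. Length was that of the longest annotated protein-coding transcript, and whether these cells carry it was not tested for any gene. Values are therefore given on 3 scales: the log2 difference as deposited; the same relative to the median gene, which lay at 1.18; and the difference after each library's trend on transcript length was removed, called length-adjusted below. The fed 4 h libraries are set beside them.

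**Figure D2:**
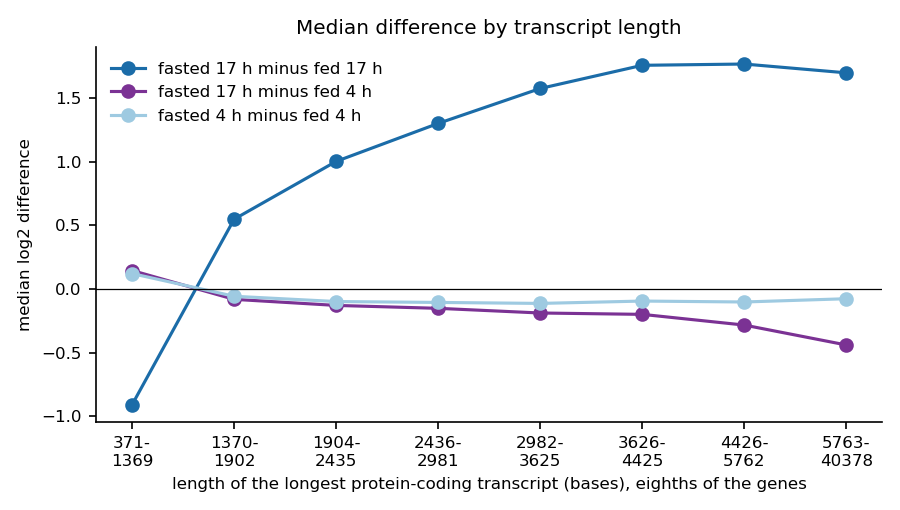
Median log2 difference of genes in eighths by transcript length (bases, x axis) for 3 comparisons. Fasted minus fed at 17 h runs from -0.91 in the shortest to above 1.5 in the longer eighths, while fasted 17 h minus fed 4 h runs from 0.14 to -0.44.

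As deposited, 8171 of 9134 genes, or 89.5%, passed the limma test at an adjusted p under 0.05, of which 6888 (75.4% of those tested) were higher and 1283 (14%) lower in fasted monocytes. For 88.3% of genes the 3 fed and 4 fasted libraries were fully separate. Once each library was centred on its median, 3737 genes (40.9%) were higher and 3323 (36.4%) lower. With the length trend removed, 3282 of 8505 (38.6%) were higher and 2361 (27.8%) lower. Calls on all 3 scales, here and below, are those made in 1 direction as deposited, with centred libraries and with the length trend removed. They were 2369 higher (27.9%) and 760 lower (8.94%). The value relative to the median gene has no test of its own. Against the fed 4 h libraries, 875 of 8844 genes (9.89%) were higher and 3265 (36.9%) lower. That comparison uses the same fasted libraries, and in it time and experiment cannot be told apart from feeding. With its libraries centred on their medians, 2025 were higher and 1761 lower, so calls against fed 4 h libraries also depend on the scale. Unless stated, values against fed 4 h libraries are not centred. The counts for gene lists below stand beside these shares over all genes.

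The genes with the highest differences included some of matrix, innate sensing and lipid handling. Thbs1, thrombospondin 1, a matrix protein that activates TGF-beta and binds platelets and phagocytes, was listed at 0.49, 0.83 and 0.28 TPM in the fed libraries and at 61.0, 187, 179 and 227 TPM in the fasted ones. No fasted library came near a fed one, and library 1 was the lowest of the fasted. The difference was 6.60 ± 0.39 (SE), or 5.42 relative to the median gene (adjusted p = 2.03e-07), and 4.94 length-adjusted (adjusted p = 2.97e-06). Fed 4 h libraries held 5.95 to 19.8 TPM and fasted 4 h libraries 20.8 to 46.7 TPM, so that the fasted 17 h libraries were above all of them.

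Chil3, the chitinase-like protein Ym1 of alternatively activated and marrow myeloid cells, ranked 2 among all genes by mean TPM in fasted monocytes, after Lyz2, and 34 in fed monocytes. It stood at 2706, 3516 and 2848 TPM in the fed and at 30275, 43669, 43543 and 37050 TPM in the fasted libraries. The groups were far apart, with a difference of 3.67 ± 0.15, 2.49 relative to the median gene and 3.45 length-adjusted (adjusted p = 7.18e-08 as deposited and 2.89e-07 length-adjusted). Fed 4 h monocytes held 2998 to 4515 TPM, close to the fed 17 h level, and fasted 4 h monocytes 6093 to 8691 TPM. Chil3 has a near-identical neighbour, Chil4, and how the quantification split their reads is uncertain.

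Fpr1, the receptor for bacterial formyl peptides, was measured at 1.26, 1.96 and 1.13 TPM in fed libraries, against 29.1, 46.2, 47.4 and 29.4 TPM in the fasted ones. The groups did not overlap, and its difference of 3.97 was 2.79 relative to the median gene and 4.14 length-adjusted (adjusted p = 5.17e-07). Fed 4 h libraries lay at 2.23 to 3.89 TPM and fasted 4 h libraries at 4.97 to 10.5 TPM. C5ar1, the receptor for the complement fragment C5a, went from 3.76, 2.68 and 2.42 TPM to 24.6, 44.5, 43.7 and 39.0 TPM, 2.10 relative to the median gene and 2.17 length-adjusted. It too was above the 5.99 to 14.3 TPM of fed 4 h monocytes. Of the 23 measured Toll-like, formyl peptide and lectin receptors and their partners, 10 were higher and 1 lower on all 3 scales, with a length-adjusted median of 0.43 against 0.13 for all genes.

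Pla2g7, Apoe and Trf, which encode secreted proteins, were higher as well on all 3 scales. Pla2g7, which degrades platelet-activating factor, was listed at 48.1, 67.3 and 59.4 TPM in fed libraries, against 824, 1138, 1139 and 776 TPM in the fasted ones. Its groups did not overlap, and its difference was 2.84 relative to the median gene and 3.19 length-adjusted (adjusted p = 7.68e-07). Apoe, the lipid carrier apolipoprotein E, rose from 569, 663 and 534 TPM to 3694, 4967, 4688 and 3894 TPM, 1.68 relative to the median gene and 2.88 length-adjusted (adjusted p = 3.45e-07). In fed 4 h libraries Apoe stood at 581 to 1045 TPM, about where the fed 17 h libraries were. Trf, the iron carrier transferrin, was higher by 1.89 relative to the median gene and 1.94 length-adjusted. Apoe and Trf are 2 of the 7 macrophage genes measured. The summed level of the 7 was 652 to 820 TPM in fed libraries, against 4348 to 5825 TPM in the fasted ones, and Apoe made up most of it in both groups. Of the 7, 3 were higher and none lower on all 3 scales, beside 27.9% and 8.94% of all genes. The macrophage markers C1qa and Vcam1 were not analysed here, and Adgre1, which encodes F4/80, was at 25.5 to 31.6 TPM in fed libraries, against 107 to 130 TPM in the fasted ones. The part of macrophages in these values was not tested.

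Classical monocyte genes moved in both directions. Of 28 measured, 11 were higher and 4 lower on all 3 scales, and 18 were higher and 6 lower length-adjusted, with a median of 0.36. Fn1, fibronectin, was at 65.6, 52.3 and 29.9 TPM in fed libraries, against 661, 1110, 1130 and 1901 TPM in the fasted ones, which did not overlap. Its length-adjusted difference was 2.92 (adjusted p = 2.13e-05), but fed 4 h libraries already held 565 to 849 TPM. Against them the difference of 0.67 did not pass (adjusted p = 0.108), while with centred libraries it was 0.86 and passed (adjusted p = 0.0392). Vcan, the proteoglycan versican, went from 2.60, 4.12 and 2.59 TPM to 57.4, 94.0, 94.3 and 69.7 TPM, 2.70 length-adjusted, and also exceeded the 14.5 to 22.9 TPM of fed 4 h monocytes. Plac8, a small cysteine-rich protein of myeloid cells, was the other way round: 5383, 5474 and 5325 TPM when fed and 1134, 919, 1031 and 821 TPM when fasted. Its difference was -2.48 ± 0.11 as deposited and -2.11 length-adjusted (adjusted p = 1.96e-07), while fed 4 h libraries were at 1146 to 1601 TPM.

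Ly6c2, which encodes the Ly6C antigen used to sort classical monocytes, depended on the scale. It was listed at 12471, 11205 and 12585 TPM in fed libraries, against 5659, 5024, 5293 and 4926 TPM in the fasted ones, which did not overlap. The difference of -1.21 as deposited became 0.19 length-adjusted (adjusted p = 0.0414) and -0.06 against the fed 4 h libraries, which held 4289 to 6716 TPM. Flt3, a cytokine receptor of progenitors and dendritic cells, was higher on every scale, from 3.80, 3.00 and 2.78 TPM to 56.7, 78.9, 75.4 and 63.7 TPM. Its length-adjusted difference was 2.52, and fed 4 h libraries stood at 10.2 to 12.2 TPM. Crispld2, a secreted glycoprotein induced by glucocorticoids in human airway muscle cells, was near the limit of detection in fed libraries, at 0.127, 0.135 and 0.328 TPM, and reached 10.3, 23.3, 23.8 and 16.8 TPM after fasting.

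**Figure D3:**
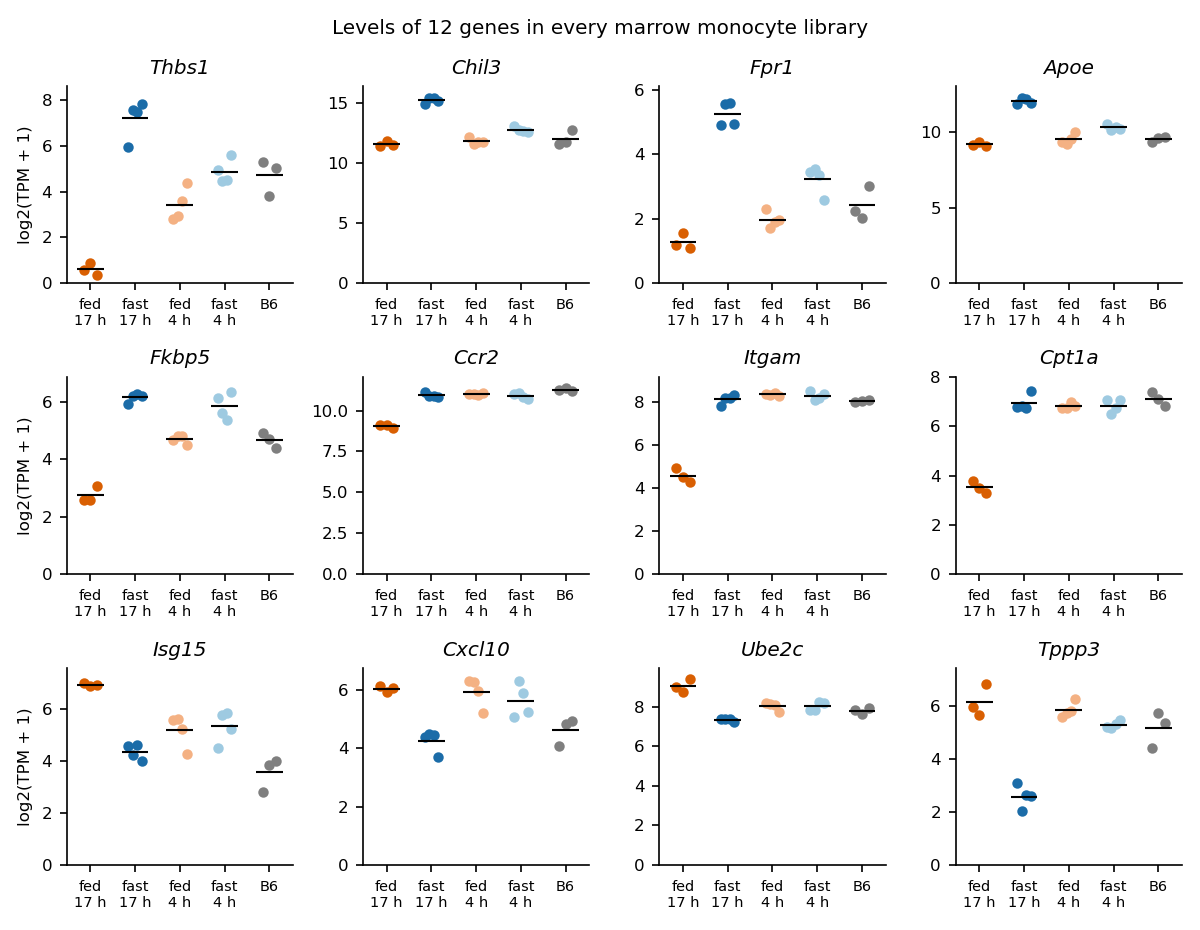
Levels of 12 genes as log2(TPM + 1) in each of the 18 marrow monocyte libraries; each dot is 1 library, each line a group mean, and B6 stands for the 3 C57BL/6 libraries of another experiment. Thbs1, Chil3, Fpr1 and Apoe were highest in the fasted 17 h group and Tppp3 lowest there, whereas for Ccr2, Itgam and Cpt1a the fed 17 h libraries alone lay apart.

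Receptors for chemokines and adhesion, which hold monocytes in the marrow or let them out, stood above, near or below the fed 4 h level. Ccr2, the receptor that classical monocytes need to leave the marrow, was at 544, 548 and 486 TPM in fed libraries, against 2223, 1934, 1889 and 1818 TPM in the fasted ones. Although these groups did not overlap and the difference was 1.90 as deposited and 0.72 relative to the median gene, it was 0.24 length-adjusted (adjusted p = 0.065). Fed 4 h libraries held 1987 to 2128 TPM, so that the fasted 17 h libraries differed from them by -0.07 (adjusted p = 0.456). Cxcr4, the CXCL12 receptor that retains cells in the marrow, was listed at 28.5, 23.6 and 26.7 TPM in fed libraries, against 65.7, 77.6, 74.8 and 83.0 TPM in the fasted ones. It was higher by 0.30 relative to the median gene and 0.92 length-adjusted (adjusted p = 3.77e-05), yet lower than the 121 to 160 TPM of fed 4 h libraries, by 0.85 on the log2 scale.

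Cx3cr1, the fractalkine receptor of patrolling monocytes, gave 49.4, 40.9 and 34.5 TPM in fed libraries, against 254, 247, 236 and 281 TPM in the fasted ones. Its groups were apart, and it was higher by 0.96 length-adjusted and by 0.53 against the fed 4 h libraries. Ccr1, a receptor for CCL3 and CCL5, likewise was higher by 1.19 length-adjusted and 0.97 against fed 4 h monocytes. Of 11 measured chemokine receptors and traffic genes, 6 were higher and none lower on all 3 scales, while against fed 4 h libraries 5 were higher and 3 lower.

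Itgam, the CD11b integrin, and Csf1r, the receptor for the monocyte growth factor CSF1, had large differences that the fed 4 h libraries did not share. Itgam stood at 29.9, 22.3 and 18.4 TPM in fed libraries, against 229, 291, 293 and 325 TPM in the fasted ones, 2.37 relative to the median gene and 1.91 length-adjusted. Fed 4 h libraries held 310 to 345 TPM, and against them the difference was -0.22 (adjusted p = 0.0833). Csf1r was measured at 82.9, 64.7 and 46.5 TPM in fed libraries, against 365, 378, 368 and 529 TPM in the fasted ones, and at 478 to 575 TPM in fed 4 h libraries. Nr4a1, the nuclear receptor needed for non-classical monocytes, was higher by 0.75 length-adjusted and lower by 0.80 against fed 4 h monocytes. With centred libraries the latter was -0.61 and did not pass (adjusted p = 0.0618). Among 16 non-classical monocyte genes measured, 5 were higher and 1 lower on all 3 scales, near the 27.9% and 8.94% of all genes.

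Several genes induced by glucocorticoids were higher in fasted monocytes at both times. Fkbp5, a co-chaperone of the glucocorticoid receptor and its classic target, was at 4.94, 5.02 and 7.28 TPM in fed libraries, against 59.4, 72.8, 76.5 and 72.3 TPM in the fasted ones. The groups did not overlap, and its difference was 2.23 relative to the median gene and 1.84 length-adjusted (adjusted p = 1.31e-05). In the 4 h experiment, whose libraries are separate, Fkbp5 was 21.6 to 26.8 TPM in fed monocytes, against 40.0 to 80.0 TPM in the fasted ones, a difference of 1.17 (adjusted p = 0.0304). Ddit4, or REDD1, an inhibitor of mTORC1, was listed at 1.31, 0.499 and 1.73 TPM when fed and 6.66, 29.1, 30.5 and 27.8 TPM when fasted. Library 1 was the low one of the fasted, though above all fed libraries, and the length-adjusted difference was 2.83 (adjusted p = 0.000408).

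Tsc22d3, or GILZ, which restrains NF-kB and AP-1, gave 87.5, 87.0 and 136 TPM in fed libraries, against 303, 528, 521 and 697 TPM in the fasted ones. It rose by 1.54 length-adjusted (adjusted p = 0.000472), and by 1.04 after 4 h of fasting (adjusted p = 0.00549). Dusp1, a phosphatase that switches off p38 and JNK, rose by 2.24 length-adjusted and by 1.53 at 4 h. Against the fed 4 h libraries, however, Ddit4, Tsc22d3 and Dusp1 did not pass, with adjusted p-values of 0.0562, 0.157 and 0.0567. With the libraries of that comparison centred on their medians, Ddit4 (1.72, adjusted p = 0.0396) and Dusp1 (1.33, adjusted p = 0.0331) passed. Tsc22d3 (0.66, adjusted p = 0.0529) did not. Cdkn1a, the cell cycle inhibitor p21, which was also on the list, was lower: 131, 114 and 88.1 TPM in fed libraries, against 26.4, 29.5, 33.1 and 35.7 TPM in the fasted ones, with 19.0 to 33.2 TPM in fed 4 h libraries. Of the 23 list members measured, 10 were higher and 3 lower on all 3 scales, 9 were higher and 1 lower against the fed 4 h libraries, and 6 were higher and none lower at 4 h, where 0.424% of all 9428 genes passed.

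Cpt1a and 7 of 13 AMPK genes were higher than in the fed 17 h libraries on all 3 scales, and none of them was called higher than in the fed 4 h libraries. Cpt1a, which admits long-chain fatty acids to mitochondria, was at 12.9, 10.3 and 8.77 TPM in fed libraries, against 110, 112, 107 and 171 TPM in the fasted ones. Its difference was 2.24 relative to the median gene and 1.79 length-adjusted (adjusted p = 3.38e-06), but fed 4 h libraries held 106 to 126 TPM and against them it was 0.12 (adjusted p = 0.512). Prkaa1, a catalytic subunit of AMPK, was listed at 6.05, 5.43 and 5.56 TPM when fed and 33.3, 32.3, 31.2 and 32.2 TPM when fasted, beside 32.6 to 40.4 TPM in fed 4 h libraries. Of 13 AMPK genes measured, 12 were higher and none lower as deposited, 8 higher and 1 lower length-adjusted, and 7 higher and none lower on all 3 scales. Over all genes 27.9% were higher on all 3 scales. Against fed 4 h libraries none of the 13 was higher and 8 were lower, where 9.89% of all genes were higher and 36.9% lower. With centred libraries none was higher and 4 were lower there. The 34 measured genes of fatty acid oxidation and PPAR targets gave 12 higher and 2 lower on all 3 scales, beside 27.9% and 8.94% of all genes. Against fed 4 h libraries 10 were higher and 7 lower.

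Plin2 and Dgat2, genes of lipid storage, were higher than in either fed group. Of the 10 lipid droplet and lipase genes measured, 4 were higher and 1 lower on all 3 scales, beside 27.9% and 8.94% of all genes. Plin2, the coat protein of lipid droplets, went from 146, 143 and 198 TPM to 812, 744, 712 and 737 TPM, 1.57 length-adjusted (adjusted p = 2.15e-06), with 355 to 596 TPM in fed 4 h libraries. Dgat2, which makes triglyceride, went from 2.98, 2.74 and 2.05 TPM to 12.6, 17.5, 17.5 and 25.4 TPM, 1.45 length-adjusted, and was higher by 0.89 against fed 4 h libraries (adjusted p = 0.00471). Hif1a, the oxygen-sensitive transcription factor that drives glycolytic genes, was higher by 1.13 length-adjusted and by 0.41 against fed 4 h libraries. Txnip, a glucose-responsive inhibitor of glucose uptake, was at 98.1, 89.5 and 73.7 TPM in fed libraries, against 592 to 615 TPM in the fasted ones, and at 619 to 728 TPM in fed 4 h libraries.

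Of 20 measured cholesterol genes, 12 were higher and 5 lower as deposited, 3 higher and 4 lower on all 3 scales, and 5 higher and 10 lower length-adjusted. Against fed 4 h libraries none was higher and 13 were lower, and 3 were lower at 4 h. Stard4, which moves cholesterol between membranes and is induced when sterol is short, was at 11.9, 15.9 and 11.7 TPM in fed libraries, against 7.62, 5.10, 6.24 and 7.35 TPM in the fasted ones. The groups did not overlap, and it fell by 0.91 as deposited, and its values were -2.57 length-adjusted (adjusted p = 8.53e-07) and -1.42 against the fed 4 h libraries. Fdps, which makes farnesyl pyrophosphate, was at 144, 111 and 215 TPM in fed libraries, against 121, 84.6, 81.0 and 86.4 TPM in the fasted ones. Those groups overlapped through fasted library 1; the difference was -0.71 ± 0.22 (adjusted p = 0.0105) and -0.65 length-adjusted. At 4 h Fdps was lower too, by 0.74 (adjusted p = 0.00533).

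Interferon-stimulated genes, the antiviral programme that interferons switch on, were lower in fasted monocytes once the shift of the fed libraries was taken into account. As deposited 29 of 48 were called higher and 16 lower, with a median of 0.52, which is -0.66 relative to the median gene. Length-adjusted, 4 were higher and 31 lower, and against the fed 4 h libraries none was higher and 39 were lower. With the libraries of that last comparison centred, 2 were higher and 32 lower. At 4 h none of them passed in either direction. Isg15, a ubiquitin-like antiviral protein, was at 129, 117 and 120 TPM in fed libraries, against 23.2, 17.9, 23.5 and 15.2 TPM in the fasted ones, which did not overlap. Its difference was -2.57 as deposited and -0.95 length-adjusted (adjusted p = 3.85e-05), and fed 4 h libraries held 18.4 to 48.1 TPM. Bst2, or tetherin, which holds budding virus on the cell, was at 404, 288 and 334 TPM in fed libraries, against 107, 103, 98.6 and 79.4 TPM in the fasted ones. Its length-adjusted difference was -0.30 (adjusted p = 0.0427), and it did not pass against fed 4 h libraries (-0.17, adjusted p = 0.481).

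The promoters of interferon-stimulated genes are known for the interferon-stimulated response element. Its pattern, 2 copies of GAAA with 2 bases between them, was searched on both strands from 250 bases before to 50 bases after the start, in the RefSeq promoter table of build GRCm38.p6. It occurred in 19 of the 37 list members with a promoter (51.4%) and in 4.26% of 7015 tested genes; in all 32851 promoters the share was 3.44%. The 250 bases before the start of Isg15 (chr4:156200819-156201068, minus strand) and of Bst2 (chr8:71537473-71537722, minus strand) are shown 5′ to 3′ because both carry overlapping copies, in capitals. The match describes the letters and not binding of a factor.
Isg15 promoter: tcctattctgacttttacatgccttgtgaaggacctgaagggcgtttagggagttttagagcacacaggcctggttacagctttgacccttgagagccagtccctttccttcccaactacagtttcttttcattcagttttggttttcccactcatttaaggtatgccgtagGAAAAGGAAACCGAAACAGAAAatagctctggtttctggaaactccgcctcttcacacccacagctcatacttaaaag
Bst2 promoter: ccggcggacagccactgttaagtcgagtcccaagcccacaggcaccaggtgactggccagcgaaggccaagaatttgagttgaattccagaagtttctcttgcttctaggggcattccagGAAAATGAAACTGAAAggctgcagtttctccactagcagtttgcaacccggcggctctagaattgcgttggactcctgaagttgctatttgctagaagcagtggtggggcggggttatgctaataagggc

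Other members gave different sizes on the different scales. Xaf1, an interferon-induced promoter of apoptosis, was at 140, 136 and 154 TPM in fed libraries, against 52.2, 37.3, 44.2 and 39.8 TPM in the fasted ones. It fell by 2.85 length-adjusted (adjusted p = 1.96e-07) and by 0.53 against fed 4 h libraries. With centred libraries that last difference was -0.34 and did not pass (adjusted p = 0.146). Cxcl10, a chemokine for T cells, was at 69.4, 60.1 and 67.0 TPM in fed libraries, against 20.1, 21.6, 21 and 12.2 TPM in the fasted ones. Its difference was -1.67 length-adjusted (adjusted p = 1.91e-05) and -1.66 against the 35.9 to 77.7 TPM of fed 4 h libraries. Ifitm3, which blocks viral fusion, fell by 0.54 length-adjusted, but its difference from fed 4 h libraries was 0.39 (adjusted p = 0.0823). With centred libraries it was 0.58 and passed as higher (adjusted p = 0.0278).

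Of 11 measured genes of MHC class II presentation, 4 were higher and 5 lower as deposited, and 2 higher and 6 lower length-adjusted. On all 3 scales 5 were lower and none higher, beside 8.94% and 27.9% of all genes. Against fed 4 h libraries 1 was higher and 5 were lower, and with centred libraries 4 were higher and 3 lower. H2-Aa, an alpha chain of the class II molecule, was at 208, 140 and 311 TPM in fed libraries, against 130, 69.8, 71.3 and 55.5 TPM in the fasted ones, just short of overlapping. It fell by 1.42 ± 0.31 as deposited (adjusted p = 0.00147), by 0.83 length-adjusted and by 1.5 against fed 4 h libraries. Cd74, the invariant chain that loads class II molecules, was at 653, 453 and 659 TPM in fed libraries, against 470, 377, 369 and 293 TPM in the fasted ones, which overlapped; it fell by 0.64 as deposited (adjusted p = 0.00624) and 0.63 length-adjusted. The 9 dendritic cell genes measured had a summed level of 463 to 628 TPM in fed libraries, against 353 to 462 TPM in the fasted ones. Of these 9 genes, 2 were lower and 1 higher on all 3 scales, beside 8.94% and 27.9% of all genes. The dendritic markers Siglech, Clec9a and Xcr1 were not analysed here, and the part of such cells in the class II values was not tested.

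Cell cycle genes were lower as well on the adjusted scales. Of 42 measured mitosis genes, none was higher and 30 were lower length-adjusted, with a median of -0.65, and none was higher and 40 were lower against fed 4 h libraries. As deposited the counts were 23 higher and 10 lower. Of 38 DNA replication genes, 22 were higher and 9 lower as deposited, 1 was higher and 26 lower length-adjusted, and none was higher and 30 were lower against fed 4 h libraries. At 4 h no gene of either list passed. Ube2c, the ubiquitin-conjugating enzyme of the anaphase-promoting complex, was at 512, 420 and 659 TPM in fed libraries, against 163, 167, 162 and 150 TPM in the fasted ones. The fasted libraries lay close together and far below the fed ones, and Ube2c fell by 1.69 as deposited, by 2.59 length-adjusted (adjusted p = 3.52e-07) and by 0.69 against the 211 to 284 TPM of fed 4 h libraries.

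Birc5, survivin, which serves in chromosome segregation, fell from 574, 493 and 735 TPM to 234, 215, 221 and 184 TPM. Its difference was -1.48 as deposited, -2.91 length-adjusted and -0.31 against fed 4 h libraries. Its adjustment used the longest annotated protein-coding transcript, of 3334 bases. With centred libraries its difference from fed 4 h monocytes was -0.11 and did not pass (adjusted p = 0.402). Tyms, thymidylate synthase, was at 249, 220 and 350 TPM in fed libraries, against 119, 83.7, 87.2 and 62.5 TPM in the fasted ones, but its difference of -0.22 from fed 4 h libraries did not pass (adjusted p = 0.36). Mki67, the long transcript of the proliferation antigen Ki-67, changed direction with the scale. It was at 23.1, 18.9 and 23.9 TPM in fed libraries, against 48.8, 48.8, 41.9 and 40.1 TPM in the fasted ones, higher by 1.00 as deposited, and stood at -0.18 relative to the median gene. Length-adjusted it was lower by 0.61 (adjusted p = 0.00486), and against the 107 to 133 TPM of fed 4 h libraries it was lower by 1.38 (adjusted p = 1.56e-06).

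Promoters of mitotic genes often carry the cell cycle homology region, bound by the DREAM complex. Its core letters TTTGAA occurred on either strand in 26 of the 36 mitosis genes with a promoter in the same table (72.2%), in 14.8% of 7015 tested genes and in 17.9% of all 32851 promoters. The 250 bases before the starts of Ube2c (chr2:164769679-164769928, plus strand) and Mki67 (chr7:135716380-135716629, minus strand) are shown with these letters, or their reverse complement, in capitals, since the pair moved in opposite directions as deposited and in the same direction length-adjusted.
Ube2c promoter: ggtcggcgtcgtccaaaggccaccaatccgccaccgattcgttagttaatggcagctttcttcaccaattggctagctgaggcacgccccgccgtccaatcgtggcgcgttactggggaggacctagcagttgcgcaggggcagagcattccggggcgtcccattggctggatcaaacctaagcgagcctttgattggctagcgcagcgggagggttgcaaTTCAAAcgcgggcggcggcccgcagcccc
Mki67 promoter: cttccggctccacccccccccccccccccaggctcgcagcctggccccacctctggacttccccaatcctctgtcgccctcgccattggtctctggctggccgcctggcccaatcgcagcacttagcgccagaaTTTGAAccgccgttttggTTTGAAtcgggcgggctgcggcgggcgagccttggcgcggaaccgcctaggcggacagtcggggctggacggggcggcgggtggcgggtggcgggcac

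Hsp90aa1 and Tppp3 were lower after fasting on every scale. Hsp90aa1, the inducible HSP90, was at 501, 434 and 724 TPM in fed libraries, against 124, 97.2, 124 and 97.8 TPM in the fasted ones, which did not overlap. It fell by 2.29 as deposited, 3.71 length-adjusted (adjusted p = 4.38e-07) and 0.90 against the 181 to 238 TPM of fed 4 h libraries. Of 26 heat shock genes measured, 20 were higher and 3 lower as deposited, 3 and 3 on all 3 scales, and 4 higher and 15 lower length-adjusted. Against fed 4 h libraries none was higher and 17 were lower, beside 9.89% and 36.9% of all genes. With centred libraries 2 were higher and 8 lower there. Tppp3, which binds microtubules, was listed at 62.1, 49.4 and 114 TPM in fed libraries, against 7.45, 3.08, 5.17 and 5.09 TPM in the fasted ones. Fed 4 h libraries held 46.6 to 75.3 TPM and fasted 4 h libraries 35.0 to 43.6 TPM, so that the fasted 17 h libraries alone were low. Its difference was -3.57 as deposited, -3.54 length-adjusted (adjusted p = 3.38e-06) and -3.27 against fed 4 h libraries.

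Genes of ribosomal proteins and oxidative phosphorylation, lists with short transcripts at the median, were mostly lower as deposited and length-adjusted. Against the fed 4 h libraries they were lower less often than all genes. Of 73 cytosolic ribosomal protein genes, whose median transcript length was 970 bases, 3 were higher and 67 lower as deposited, and 14 higher and 41 lower length-adjusted. Against fed 4 h libraries 8 were higher and 21 lower, beside 9.89% and 36.9% of all genes. With centred libraries 13 were higher and 9 lower there. For 78 nuclear genes of oxidative phosphorylation, with a median length of 918 bases, 12 were higher and 60 lower as deposited. The counts were 14 and 43 length-adjusted, and 2 and 37 on all 3 scales. Of all genes, 14% were lower as deposited, 27.8% length-adjusted and 8.94% on all 3 scales. Against fed 4 h libraries 25 of 77 were higher and 9 lower. With centred libraries 44 were higher and none lower there, beside 2025 higher and 1761 lower of all 8844 genes. Rpl35, a protein of the large ribosomal subunit, was at 1044, 1389 and 939 TPM in fed libraries, against 186, 191, 293 and 136 TPM in the fasted ones, and at 106 to 132 TPM in fed 4 h libraries, below all fasted 17 h libraries (0.76, adjusted p = 0.00955). Ndufb2, a subunit of complex I, was at 175, 179 and 223 TPM in fed libraries, against 11, 11.9, 42.4 and 8.87 TPM in the fasted ones, and at 8.60 to 10.7 TPM in fed 4 h libraries. The fed 17 h libraries were the highest of these 3 groups for both genes, and the length-adjusted differences were -1.47 for Rpl35 and -5.21 for Ndufb2 (adjusted p = 0.000206 and 2.88e-05). As deposited Ndufb2 had -3.58. Its adjustment used the longest annotated protein-coding transcript, of 4371 bases. Whether these cells carry that transcript was not tested. S100a10 (the annexin A2 partner p11), Gpx1 (glutathione peroxidase) and Tyrobp (the DAP12 adaptor) had short transcripts, with differences of -2.24, -1.68 and -1.97 as deposited. Against fed 4 h libraries they had 0.10, 0.00 and 0.80, of which none passed. With centred libraries Tyrobp passed there (1.00, adjusted p = 0.0285), while S100a10 and Gpx1 did not.

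**Figure D4:**
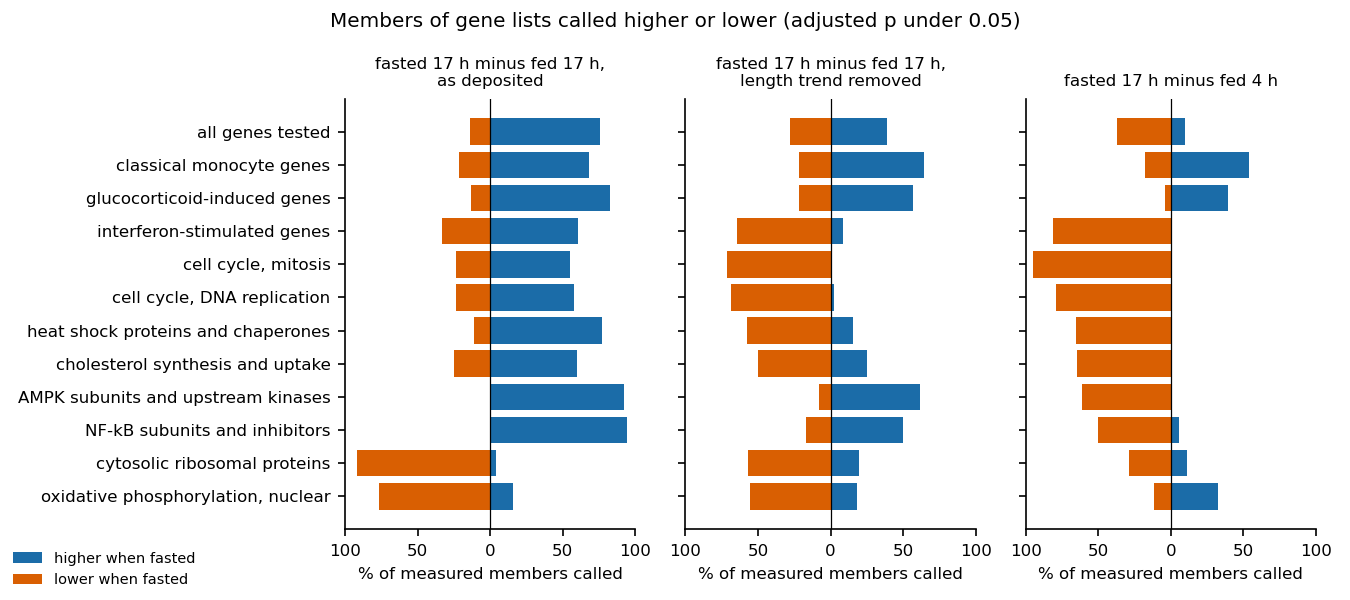
Percentage of the measured members of 11 gene lists, and of all genes tested, that were called higher (right, blue) or lower (left, orange) in fasted 17 h monocytes. The 3 panels show, in order, calls as deposited, length-adjusted and against fed 4 h libraries. Interferon-stimulated, cell cycle, heat shock and cholesterol genes lean lower in the middle and right panels, and ribosomal and oxidative phosphorylation genes lean lower in the left and middle ones.

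For genes of inflammatory signalling the direction of most calls depended on the fed libraries used, as it did over all genes, of which 75.4% were higher and 14% lower as deposited and 9.89% higher and 36.9% lower against fed 4 h libraries. Of 18 NF-kB subunits and inhibitors, 17 were higher and none lower as deposited, 6 were higher and none lower on all 3 scales, and 1 was higher and 9 were lower against fed 4 h libraries. Rela, the p65 subunit, was at 18.4, 15 and 10.3 TPM in fed libraries, against 55.4, 59.8, 59.8 and 83.0 TPM in the fasted ones, 0.89 higher length-adjusted and -0.02 against fed 4 h libraries (adjusted p = 0.89). Nlrp3, the inflammasome sensor, was higher by 0.50 length-adjusted and stood at -0.03 against fed 4 h libraries (adjusted p = 0.817). Of 13 measured inflammatory cytokines and mediators, none was called in 1 direction on all 3 scales. Il1b, Tnf, S100a8, Ppara, Pdk4 and the clock genes Per1, Per2, Nr1d1 and Dbp were not analysed at 17 h. Per1, also a glucocorticoid target, was higher after 4 h of fasting, by 1.57 ± 0.23 (adjusted p = 0.0162).

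Genes on the neutrophil and erythroid lists were present in both groups. The 18 neutrophil genes measured summed to 9396 to 10473 TPM in fed libraries, against 34840 to 48636 TPM in the fasted ones. Chil3 carries that rise: without it the other 17 summed to 5971 to 7625 TPM in fed libraries, against 4565 to 5845 TPM in the fasted ones. On all 3 scales 7 of the 18 were higher and 3 lower, beside 27.9% and 8.94% of all genes. The neutrophil markers Ly6g, Camp, Ngp and Ltf were not analysed at 17 h. The 7 erythroid genes summed to 235 to 442 TPM in fed libraries, against 109 to 997 TPM in the fasted ones, and the hemoglobin gene Hba-a1 ranged from 15 to 375 TPM among the fasted, with the highest value in library 4. Without that library, 8110 genes were called. The part of these cells in the differences above was not tested.

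Fasting for 4 h, in libraries that share none with the 17 h groups, moved few genes: 25 of 9428 (0.265%) were higher and 15 (0.159%) lower. The 40 calls became 14 to 145 when 1 library at a time was left out, the fewest without fed library 2 and the most without fasted library 1. Of the 23 higher genes that the 17 h tables list, 19 were higher at 17 h as deposited, where 75.4% of all genes were. Of the 22 with a length, 17 were higher length-adjusted, where 38.6% of all genes were; that is 68.0% of the 4 h calls and 0.518% of the length-adjusted 17 h calls. They include Chil3, Fpr1, Crispld2, Vcan, Fkbp5, Ddit4, Tsc22d3 and Dusp1. Of the 12 lower genes listed at 17 h, 4 were lower as deposited, where 14% of all genes were. Of the 11 with a length, 5 were lower length-adjusted, Fdps among them, where 27.8% of all genes were. The fasting difference itself differed between the times, by the interaction term, for 7782 of 8844 genes (88.0%) as deposited and for 5115 of 8465 (60.4%) length-adjusted. For Thbs1 the interaction was 5.16 as deposited and 3.42 length-adjusted, for Chil3 2.72 and 2.50, and for Tppp3 -3.02 and -2.95, all with adjusted p under 0.05. For Fkbp5 it was 2.24 as deposited and 0.58 length-adjusted, where it did not pass (adjusted p = 0.062).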

How the data were processed

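Per the submitters' processing notes, the authors quantified the reads with kallisto 0.44.0 on GRCm38; the sources used here do not give the annotation, the summing to genes or the choice of genes listed. The deposited values are TPM per gene and library. They carry no read counts; the depth of each library is therefore unknown, and counting intervals are left out. Values were analysed as log2(TPM + 1) for genes with a mean of at least 1 TPM, with limma 3.58.1 in R 4.3.3 (trend and robust variance, Benjamini-Hochberg over all genes tested, called under 0.05). The fit used the 3 fed and 4 fasted 17 h libraries. For the length-adjusted scale, a loess trend (span 0.5) on the log2 length of the longest protein-coding GENCODE M21 transcript was subtracted from each library. The fits were tested on simulated data. Genes were named by a rule. It took the 12 highest and the 12 lowest called genes whose groups were separate, and up to 4 called genes per gene list. These needed at least 10 TPM in the higher group, and the groups of list genes could overlap. Key genes of fasting and monocytes were added if measured. Of the 216 genes so named, 53 are described. The members and lists were chosen with earlier results of these data known. The length adjustment, the fed 4 h reference and the averaging of fasted libraries 2 and 3 were chosen after seeing the data. Promoters on chromosome 18 were left out.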

Additional observations from a re-analysis of the deposited data

Results flagged for a closer look

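In 6 genes 1 fasted library lay far from the other 3, a pattern that chance gives in about 1 of 20 groups. Library 1 was low for Ddit4, at 6.66 TPM, and high for Fdps, at 121 TPM. Library 4 was high for Csf1r, at 529 TPM, for Nr4a1, at 34.6 TPM, and for Cpt1a, at 171 TPM, and low for Cxcl10, at 12.2 TPM.

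The fasting difference at 17 h differed from that at 4 h, by limma's interaction term, for 7782 genes and for 49 of the 53 genes described. The fed 17 h libraries enter every such value, and time and experiment cannot be told apart. The values are as deposited. Length-adjusted, 38 of the 49 passed with the same sign. Ly6c2 (0.34) and Mki67 (-0.42) passed with the other sign. Crispld2, Fkbp5, Tsc22d3, Dusp1, Ccr2, Bst2, H2-Aa, Tyrobp and Nlrp3 did not pass. Among matrix and monocyte genes the interaction (17 h minus 4 h, log2) was 5.16 for Thbs1, 4.44 for Fn1, 2.83 for Vcan, -2.66 for Plac8 and -1.35 for Ly6c2. It was 2.72 for Chil3, 2.90 for Pla2g7, 2.71 for Fpr1, 2.31 for Crispld2 and 3.02 for Flt3. For Apoe it was 2.09 and for Trf 2.90. Of the glucocorticoid-induced genes, Fkbp5 had 2.24, Tsc22d3 1.22, Dusp1 1.45 and Cdkn1a -1.93. Of the receptors, Ccr2 had 1.99, Cx3cr1 2.72, Cxcr4 1.2, Ccr1 2.05 and C5ar1 2.62. Itgam had 3.61, Csf1r 2.91 and Nr4a1 2.81. Of the metabolic genes, Cpt1a had 3.39, Plin2 1.77, Dgat2 2.46, Prkaa1 2.32, Txnip 2.60 and Hif1a 2.80. Negative values were found for the interferon genes Isg15 (-2.73), Xaf1 (-1.95), Bst2 (-2.19), Ifitm3 (-2.90) and Cxcl10 (-1.49), and for H2-Aa (-1.36). Of the cell cycle genes, Birc5 had -1.49, Ube2c -1.68 and Tyms -1.96, and Mki67 had 1.23. Hsp90aa1 had -2.46 and Tppp3 -3.02. S100a10, Rpl35, Ndufb2, Gpx1 and Tyrobp had -2.72, -3.10, -4.36, -1.92 and -2.83. Rela and Nlrp3 had 2.20 and 1.95.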

How the results depend on the processing

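At 17 h the split of the calls depended on the scaling: 3860 higher and 2942 lower with quantile normalization, 3737 and 3323 with centred libraries, 3282 and 2361 with the length trend removed. With the fed 4 h libraries in place of the fed 17 h libraries 4140 genes were called, 875 higher and 3265 lower, and 3786 were called, 2025 higher, when these were also centred. Leaving out each library in turn gave 8044 to 8177 calls, 6766 to 6964 higher and 1213 to 1349 lower. At 4 h the lower calls went from 15 to 8 with centred libraries, 9 without a trend and 6 with the replicate block; leaving out each library gave 14 to 145 calls, 9 to 90 higher and 3 to 55 lower, the most without fasted library 1. The interaction counts were 3517 higher and 2489 lower with quantile normalization, 3489 and 2936 with centred libraries, and 5115 in all, 3048 higher and 2067 lower, with the length trend removed. Leaving out each 17 h library gave 7705 to 7777, 6524 to 6691 higher and 1086 to 1213 lower.

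The 53 genes kept direction and call when each library was left out and without trend, robustness or filter. With the length trend removed, Ly6c2 (0.19), Mki67 (-0.61) and Tyrobp (0.27) changed sign, as Mki67 did with quantile normalization (-0.0228) and centred libraries (-0.092). Against fed 4 h libraries, 17 changed sign: Cdkn1a (0.17), Ccr2 (-0.070), Cxcr4 (-0.85), Itgam (-0.22), Csf1r (-0.35), Nr4a1 (-0.80), Prkaa1 (-0.11), Txnip (-0.16), Ifitm3 (0.39), Mki67 (-1.38), S100a10 (0.10), Rpl35 (0.76), Ndufb2 (0.60), Gpx1 (0.0045), Tyrobp (0.80), Rela (-0.025) and Nlrp3 (-0.028). The cause was not tested. The replicate numbers did not pair the samples: the deviations of same-numbered fed and fasted libraries correlated at -0.276 to 0.128, and with the replicate block 8055 genes were called. With fasted libraries 2 and 3 averaged, 8061 were called. Depth is unknown, so what it limits cannot be stated.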
